A study of Mus musculus with 10 samples.

Results

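The genes described here form the aldosterone axis of the colonic epithelium. This axis comprises the epithelial sodium channel (ENaC) and the kinases and the ligase that set its amount at the cell surface. It also includes the steroid receptors and the enzyme that guards the mineralocorticoid receptor. Its 10 members were taken by gene name from the 55487 genes of the expression table: Nr3c2, Nr3c1, Hsd11b2, Sgk1, Sgk2, Sgk3, Nedd4l, Scnn1a, Scnn1b and Scnn1g. Of these, 8 were among the 12870 genes with a mean of at least 1 TPM (a transcript's share of all transcripts, corrected for its length and scaled to a fixed total) that were tested, and Sgk3 and Scnn1g were below that level.

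Aldosterone crosses the cell membrane, binds the mineralocorticoid receptor and in the distal colon drives sodium uptake from the stool. One of its early targets is the kinase SGK1, which phosphorylates the ubiquitin ligase Nedd4-2, so that less ENaC is taken from the apical membrane. Sodium enters the colonocyte through ENaC and leaves it through the basolateral sodium pump, while 11-beta-hydroxysteroid dehydrogenase type 2 inactivates glucocorticoids that would otherwise occupy the same receptor.

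RNA-seq was performed on intestinal epithelial cells (IECs) from the colon of C57BL/6J mice, released as a cell suspension with EDTA and DTT, with 5 wild-type (WT) libraries and 5 RhoB-/- libraries. RhoB is a small GTPase, and in RhoB-/- mice it is deleted in all cells of the body. No treatment is named for either genotype. Per the study's methods, WT males were bought from another supplier than the center that made the knockout, and mice were 6–8 weeks old unless stated otherwise. The paper also names WT littermates in its chronic colitis experiment, and it does not say which WT mice gave these libraries. Genotype and source of the mice therefore cannot be told apart here. The methods name the colon and do not say which part of it was used or whether its segments were kept apart. The labels number the libraries 1 to 5 in each genotype and do not say whether each came from a separate mouse, so a p-value measures the spread between these libraries.

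Rhob itself measured 170.5 to 388.7 TPM in the WT libraries and 0.09, 0.10, 0.35 and 0.57 TPM in 4 RhoB-/- libraries. The library labelled RhoB-/- replicate 5 held 110.9 TPM, which goes against its label in part, and values without it are given for the members called and for each named gene whose call was lost without it. Epithelial identity was clear in every library: Epcam, the adhesion molecule of epithelial cells, lay between 968.8 and 1638.8 TPM, and all 8 epithelial markers were among the tested genes. The share of mitochondrial transcripts was 17.5% to 26.5% in WT and 10.3% to 22.4% in RhoB-/- libraries. TPM are relative values that keep no read depth, so the counting error behind each value is unknown. In such bulk samples, fewer cells of a type and less RNA per cell cannot be told apart.

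Among the 8 tested members, both tested kinases rose in RhoB-/- IECs, Sgk1 to 2.29 times and Sgk2 to 2.50 times the WT mean. The beta subunit of the channel, Scnn1b, fell to 0.463 of the WT mean and the guard enzyme Hsd11b2 to 0.645 of it. No change passed the test for both receptors, for Nedd4l and for the alpha subunit Scnn1a. A gene was called changed at an adjusted p below 0.05 in limma's moderated test on log2(TPM + 1), with Benjamini-Hochberg adjustment over all 12870 genes. By this rule 2 of the 8 members were called higher, against 7.73% of all tested genes, and 2 were called lower, against 13.5% of all. The groups did not overlap for 2 members with RhoB-/- above WT, against 5.97% of all tested genes, and for 1 member with RhoB-/- below WT, against 8.55%. The median log2 fold change (RhoB-/- minus WT) was 0.11 over the 8 members and -0.13 over all tested genes, and values relative to that median are given for the called members. Without the library labelled RhoB-/- replicate 5, the 8 members had 2 calls higher and 1 lower.

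**Figure D1:**
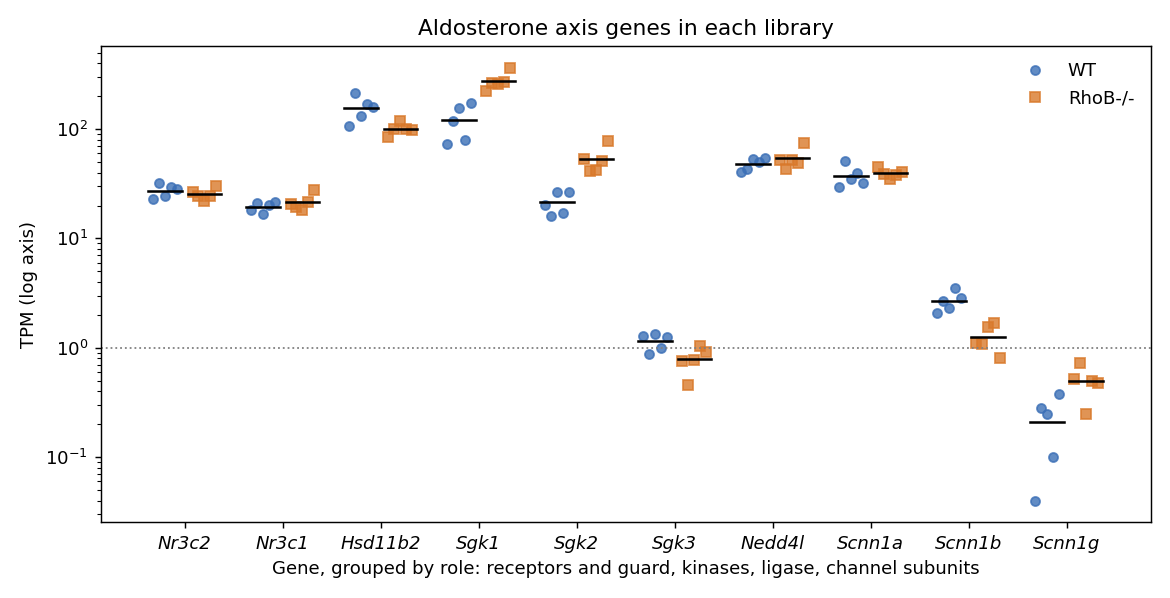
TPM of the 10 members in each of the 10 libraries on a log axis, with WT and RhoB-/- points side by side for each gene, a black bar at each group mean and a dotted line at 1 TPM. The WT and RhoB-/- points of Sgk1, Sgk2 and Scnn1b occupy separate ranges, and those of the other genes overlap.

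The 2 receptors of the axis are encoded by Nr3c2 (mineralocorticoid receptor, chr8:76899442-77245012, + strand, GRCm38) and Nr3c1 (glucocorticoid receptor, chr18:39410545-39519421, - strand). Nr3c2 measured 22.7, 32.3, 24.6, 29.5 and 28.04 TPM in WT replicates 1 to 5 and 26.8, 24.3, 21.8, 24.4 and 30.2 TPM in RhoB-/- replicates 1 to 5. The groups overlapped almost entirely, with means of 27.4 ± 3.83 and 25.5 ± 3.13 TPM (SD, n = 5 each). Its log2 fold change of -0.10 had a 95% interval from -0.36 to 0.16 (limma, adjusted p = 0.58), and centring each library on its median turned the sign, with 0.02. For Nr3c1 the values were 18.0, 21.3, 16.7, 20.1 and 21.5 TPM in WT and 20.9, 19.4, 18.3, 21.4 and 27.9 TPM in RhoB-/- libraries. These groups overlapped as well, and the highest value belonged to the library labelled RhoB-/- replicate 5. The log2 fold change of Nr3c1 was 0.13, with an interval from -0.14 to 0.40 (limma, adjusted p = 0.474). Nr3c2 exceeded Nr3c1 in all 10 libraries, by a ratio of 1.26 to 1.52 in WT (median 1.47) and 1.08 to 1.28 in RhoB-/- (median 1.20), and the ratios overlapped between genotypes.

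Hsd11b2 (chr8:105518755-105523988, + strand) encodes 11-beta-hydroxysteroid dehydrogenase type 2, which turns active glucocorticoid into its inert keto form. It measured 107.4, 215, 132.4, 168.5 and 158.2 TPM in WT and 85.0, 101.1, 119.6, 100.9 and 97.5 TPM in RhoB-/- libraries. RhoB-/- libraries were lower on the whole, and the groups overlapped because WT replicate 1 lay below RhoB-/- replicate 3. The WT mean was 156.3 ± 40.5 TPM and the RhoB-/- mean 100.8 ± 12.4 TPM (SD, n = 5 each). The log2 fold change was -0.60 (SE 0.17, 95% interval -0.97 to -0.23, limma adjusted p = 0.028), or -0.47 relative to the median of all tested genes. The call was lost when 1 of 6 libraries was left out: adjusted p in limma became 0.0711, 0.0534 and 0.059 without RhoB-/- replicate 1, 4 or 5, and 0.0583, 0.0725 and 0.0571 without WT replicate 2, 4 or 5. The reverse enzyme, Hsd11b1, which regenerates active glucocorticoid, was close to 0 in both groups, at 0 to 0.15 TPM in WT and 0.12 to 0.33 TPM in RhoB-/- libraries (unadjusted exact permutation p = 0.0159, two-sided).

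Sgk1 (chr10:21882184-21999903, + strand) encodes the steroid-induced kinase of the axis. Its levels were 73.0, 119.7, 155.0, 80.3 and 173.0 TPM in WT and 222.1, 264.0, 256.5, 270.2 and 365.4 TPM in RhoB-/- libraries. Every RhoB-/- library was above every WT library, and the WT libraries were themselves widely spread. The mean was 120.2 ± 44.2 TPM in WT and 275.6 ± 53.5 TPM in RhoB-/- (SD, n = 5 each), a log2 fold change of 1.25 (SE 0.24, 95% interval 0.74 to 1.77, limma adjusted p = 0.00404), or 1.38 relative to the median of all tested genes. Without the library labelled RhoB-/- replicate 5, which had the highest level, the log2 fold change was 1.15 (limma adjusted p = 0.0122). Sgk1 is itself induced rapidly by many stimuli, so the immediate-early genes, a group with that same property, were read beside it. Their summed level was 1575.7, 2757.6, 5099.0, 3165.2 and 5201.3 TPM in WT replicates 1 to 5 and 3011.6, 2554.6, 3861.8, 3130.7 and 3689.9 TPM in RhoB-/- replicates 1 to 5. The WT libraries with the most Sgk1, replicates 3 and 5, were also those with the highest immediate-early sums, whereas RhoB-/- replicate 3, with the highest sum of its group, was not the highest in Sgk1. Between genotypes the sums overlapped and none of the 9 genes was called by limma in either direction, nor passed an unadjusted p of 0.05. The part of the immediate-early level in Sgk1 was not tested.

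Several start sites are annotated for Sgk1, and the gene is a direct target of both corticoid receptors, which bind palindromes of the hexamer AGAACA. The 250 bases before the start were therefore read for the members listed in the RefSeq promoter table (GRCm38.p6), which held Sgk1 with 6 start sites, Scnn1b, Scnn1g and Nr3c2. No entry was found for Nr3c1, Hsd11b2, Sgk2, Sgk3, Nedd4l and Scnn1a. The motif was chosen after the letters had been seen. The hexamer AGAACA or its reverse complement TGTTCT occurred in 3 of the 6 Sgk1 windows and in none of the windows of Scnn1b, Scnn1g and Nr3c2, against 16.1% of the 32851 windows in the table. The full palindrome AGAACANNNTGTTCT, which contains the hexamer on both strands, occurred in 3 windows of the whole table (0.00913%), and 1 of these belonged to Sgk1. The Sgk1 window with the palindrome is shown with the window of the most downstream Sgk1 start, which holds no hexamer, and with the window of Scnn1b, the member that fell without overlap. Capitals mark the hexamer on either strand, and all 3 windows are on the + strand.
Sgk1, chr10:21993640-21993889: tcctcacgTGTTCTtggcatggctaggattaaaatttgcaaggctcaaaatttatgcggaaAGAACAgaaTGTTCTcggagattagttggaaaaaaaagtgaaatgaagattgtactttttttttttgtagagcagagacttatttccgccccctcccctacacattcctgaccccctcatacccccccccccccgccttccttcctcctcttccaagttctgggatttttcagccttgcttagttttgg
Sgk1, chr10:21994416-21994665: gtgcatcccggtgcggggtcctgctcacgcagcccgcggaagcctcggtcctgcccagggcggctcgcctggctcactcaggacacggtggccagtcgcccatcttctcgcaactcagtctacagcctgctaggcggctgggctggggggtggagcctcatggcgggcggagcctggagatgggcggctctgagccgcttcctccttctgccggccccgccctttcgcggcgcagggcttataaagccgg
Scnn1b, chr7:121864788-121865037: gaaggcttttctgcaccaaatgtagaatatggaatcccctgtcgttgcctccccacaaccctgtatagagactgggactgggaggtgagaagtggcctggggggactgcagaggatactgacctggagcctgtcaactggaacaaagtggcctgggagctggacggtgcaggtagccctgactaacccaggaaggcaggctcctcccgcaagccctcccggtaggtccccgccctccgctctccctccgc
In the first window the palindrome begins 189 bases before the annotated start, and a further TGTTCT lies 242 bases before it. TPM are given per gene, so the files do not show from which start Sgk1 was transcribed in either genotype. A match to letters is a description of the sequence and does not show binding.

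Sgk2 (chr2:162987330-163014127, + strand) encodes a close relative of SGK1 that is not known as a steroid-induced gene. It measured 20.4, 16.1, 26.5, 17.04 and 26.6 TPM in WT and 53.5, 41.3, 42.3, 51.3 and 77.9 TPM in RhoB-/- libraries. The lowest RhoB-/- library lay well above the highest WT library. The means were 21.3 ± 5.03 and 53.3 ± 14.8 TPM (SD, n = 5 each), with a log2 fold change of 1.27 (SE 0.19, 95% interval 0.85 to 1.69, limma adjusted p = 0.00103), or 1.398 relative to the median of all tested genes. Leaving out the library labelled RhoB-/- replicate 5 gave 1.13 (limma adjusted p = 0.00177). The ratio of Sgk1 to Sgk2 overlapped between genotypes, at 3.58 to 7.43 in WT (median 5.85) and 4.15 to 6.39 in RhoB-/- libraries (median 5.27).

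Sgk3 (chr1:9798107-9900845, + strand) encodes the endosomal member of the kinase family. Its TPM were 1.29, 0.88, 1.34, 1 and 1.26 in WT and 0.75, 0.46, 0.78, 1.03 and 0.92 in RhoB-/- libraries. Most RhoB-/- libraries were lower, but the groups overlapped, and the gene was under the level required for the test across genes. On the log2(TPM + 1) scale the means differed by -0.27 (unadjusted exact permutation p = 0.0397, two-sided, with 0.00794 the smallest p this design allows). Without RhoB-/- replicate 1, 2 or 3 or WT replicate 1, 3 or 5 this exact p lay between 0.0635 and 0.0794. The summed TPM of the 3 kinases was 94.7 to 201 in WT and 276 to 444 in RhoB-/- libraries, and Sgk1 made up 77.1% to 87.6% of it in WT and 80.4% to 86.3% in RhoB-/-.

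Nedd4l (chr18:64887705-65217828, + strand) encodes Nedd4-2, the ligase that marks ENaC for removal and that SGK1 restrains. It measured 40.6, 43.0, 53.6, 49.6 and 54.0 TPM in WT and 51.8, 43.0, 52.0, 48.9 and 74.0 TPM in RhoB-/- libraries. Apart from the library labelled RhoB-/- replicate 5, the RhoB-/- values lay inside the WT range. The log2 fold change was 0.15 (95% interval -0.17 to 0.46, limma adjusted p = 0.491) and 0.03 without that library. Set against the ligase, Sgk1 was 1.62 to 3.20 times Nedd4l in WT (median 2.79) and 4.29 to 6.13 times Nedd4l in RhoB-/- libraries (median 4.94), and these ratios did not overlap.

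ENaC is built from an alpha, a beta and a gamma subunit. Scnn1a (alpha, chr6:125320659-125344943, + strand) measured 29.7, 50.8, 35.2, 39.3 and 32.1 TPM in WT and 44.6, 39.2, 35.3, 37.9 and 40.7 TPM in RhoB-/- libraries. All RhoB-/- values fell inside the WT range. The log2 fold change of Scnn1a was 0.10, with a 95% interval from -0.20 to 0.40 (limma, adjusted p = 0.636).

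Scnn1b (beta, chr7:121865038-121918514, + strand) was far less abundant, at 2.10, 2.69, 2.32, 3.55 and 2.84 TPM in WT and 1.10, 1.09, 1.55, 1.70 and 0.81 TPM in RhoB-/- libraries. Every RhoB-/- library was below every WT library, and the library labelled RhoB-/- replicate 5 was the lowest. The WT mean was 2.70 ± 0.558 TPM and the RhoB-/- mean 1.25 ± 0.365 TPM (SD, n = 5 each), with a log2 fold change of -0.72 (SE 0.17, 95% interval -1.08 to -0.36, limma adjusted p = 0.0117), or -0.59 relative to the median of all tested genes. At these low values the added 1 TPM understates the fold, and a pseudocount of 0.1 gave -1.07. Without the library labelled RhoB-/- replicate 5 the log2 fold change was -0.65 (limma adjusted p = 0.0291). The span of Scnn1b overlaps Cog7, a Golgi gene on the other strand, but they share 0 of the 2633 exonic bases of Scnn1b, and Cog7 had a log2 fold change of -0.14 (limma adjusted p = 0.443).

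Scnn1g (gamma, chr7:121734479-121768475, + strand) lies 96562 bp upstream of Scnn1b on the same strand and was the least abundant member, at 0.04, 0.28, 0.25, 0.10 and 0.38 TPM in WT and 0.52, 0.73, 0.25, 0.50 and 0.48 TPM in RhoB-/- libraries. RhoB-/- libraries were mostly the higher ones, opposite to the beta subunit, and the groups overlapped at RhoB-/- replicate 3. The means on the log2(TPM + 1) scale differed by 0.31 (unadjusted exact permutation p = 0.0317, two-sided), and this exact p was 0.0556 without RhoB-/- replicate 1, 2, 4 or 5 or WT replicate 1 or 4. The 3 subunits were thus present at very unequal levels, and Scnn1a exceeded Scnn1b 11.1 to 18.9 times in WT (median 14.1) and 22.3 to 50.2 times in RhoB-/- libraries (median 35.9), with no overlap.

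**Figure D2:**
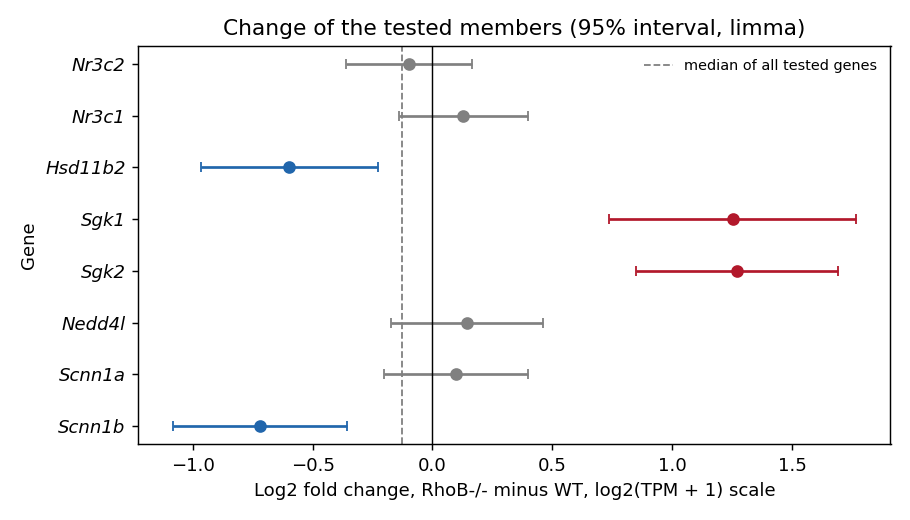
Log2 fold change (RhoB-/- minus WT, log2(TPM + 1) scale) of the 8 tested members with 95% intervals from limma, a solid line at 0 and a dashed line at the median of all tested genes. The intervals of Sgk1 and Sgk2 lie to the right of both lines, those of Scnn1b and Hsd11b2 to the left of both, and those of the other 4 members include 0.

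Per length, the order of levels changed at its top. In WT, Hsd11b2 had the highest mean and Sgk1 the next, but the order held in 3 of 5 libraries and the ranges overlapped. In RhoB-/-, Sgk1 was above Hsd11b2 in all 5 libraries with no overlap. Sgk2 was in the middle of the WT order, where it did not differ from Nr3c1 beyond the spread (above it in 3 of 5 libraries), and in RhoB-/- it stood level with Nedd4l (below it in 2 of 5 libraries). Scnn1a was next above Nr3c2 in both genotypes, and Scnn1b, Sgk3 and Scnn1g had the lowest means in both, with overlapping ranges in RhoB-/-.

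ENaC of the beta and gamma type, Hsd11b2 and Fxyd4 are features of the distal colon, so markers of colon segments were read beside these members. The posterior Hox genes, which mark the distal colon, summed to 70.4, 178, 85.1, 106.5 and 98.1 TPM in WT replicates 1 to 5 and 39.5, 49.3, 31.2, 38.8 and 20.3 TPM in RhoB-/- replicates 1 to 5, with no overlap. Hoxb13 made up most of this sum in every library, at 50.0 to 135.0 TPM in WT and 14.0 to 35.1 TPM in RhoB-/-. Each of the other posterior Hox genes overlapped between genotypes. Of 6 such genes 3 were tested and 2 were called lower: Hoxb13 fell from 81.3 ± 32.1 to 23.2 ± 8.19 TPM (log2 fold change -1.76, limma adjusted p = 0.00113) and Hoxa13 from 13.7 ± 2.20 to 7.30 ± 3.04 TPM (-0.88, adjusted p = 0.0171), and none of the 6 was at 0 in all libraries. The call of Hoxa13 was lost after median centring (limma adjusted p = 0.0514) and with no filter on low TPM (0.0509). Within genotypes the order of the libraries by Hox sum matched that of some members and not of others. WT replicate 2 had the highest Hox sum, Scnn1a, Hsd11b2 and Fxyd4, but WT replicate 4 had the highest Scnn1b. The library labelled RhoB-/- replicate 5 had the lowest Hox sum and the lowest Scnn1b, but RhoB-/- replicate 1 had the lowest Hsd11b2, and RhoB-/- replicate 2, with the highest Hox sum of its group, had the second lowest Scnn1b. Scnn1g was mostly higher in RhoB-/- libraries, opposite to the Hox genes. Of 6 markers of the proximal colon only Ang4, an antimicrobial ribonuclease, was called higher, and their sum was 3152.9 to 5092.0 TPM in WT and 4052.6 to 12915.6 TPM in RhoB-/- libraries. The highest sum was that of RhoB-/- replicate 2, where Mptx1, which was not called (limma adjusted p = 0.668), measured 8565.3 TPM. In the other RhoB-/- libraries the sum was 4052.6 to 8145.1 TPM. The part of colon segments in the values of Scnn1b and Hsd11b2 was not tested.

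**Figure D3:**
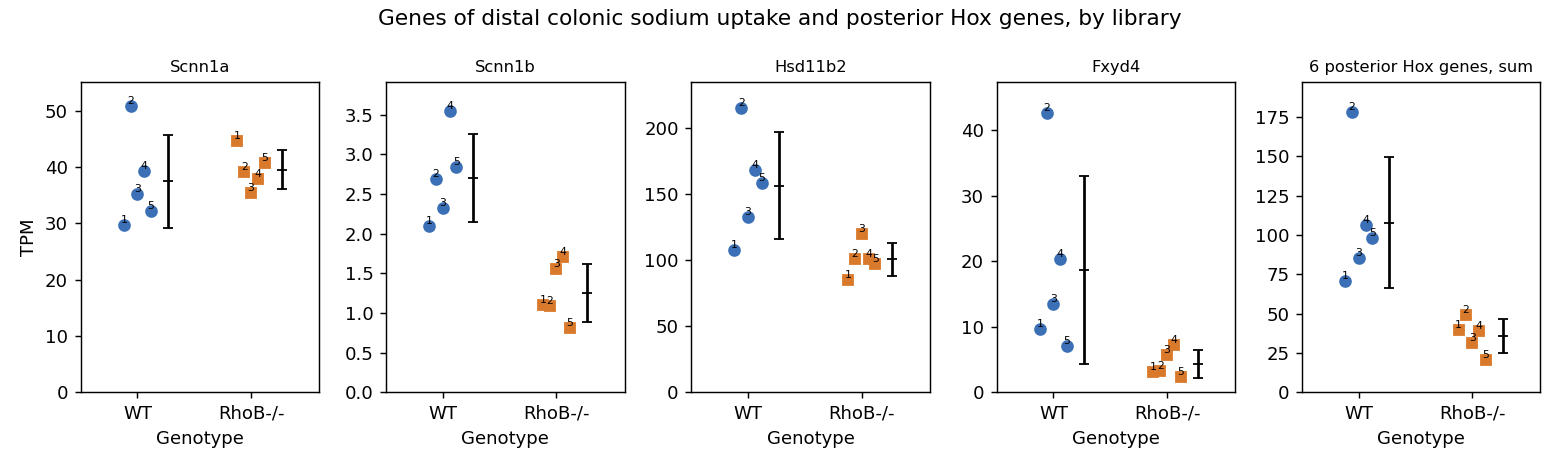
TPM by library for Scnn1a, Scnn1b, Hsd11b2, Fxyd4 and the sum of 6 posterior Hox genes, on linear axes from 0, with the replicate number on each point (WT circles, RhoB-/- squares) and the mean ± SD of the 5 libraries beside them. WT replicate 2 is the highest library for Scnn1a, Hsd11b2, Fxyd4 and the Hox sum and WT replicate 4 for Scnn1b, and the WT and RhoB-/- points of Scnn1b and of the Hox sum do not overlap.

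Markers of other cells also moved with genotype. Surface colonocyte markers had 7 of 11 tested genes higher, among them Aqp8, Krt20, Ceacam1 and Ceacam20, with a summed level of 15992 to 23498 TPM in WT and 20831 to 38008 TPM in RhoB-/-. Most of this sum was Car1, which was not called (limma adjusted p = 0.203). Car1 measured 10411.5 to 15530.3 TPM in WT and 12130.5 to 23239.2 TPM in RhoB-/-. The library labelled RhoB-/- replicate 5 held the highest sum and the highest Car1. Crypt and cycling markers had 3 of 10 lower (Mki67, Mcm2, Mcm5), at 277.7 to 365.7 TPM in WT and 147.8 to 355.5 TPM in RhoB-/-. These 3 calls were unstable: without the library labelled RhoB-/- replicate 5 the adjusted p in limma was 0.0721 for Mki67, 0.0632 for Mcm2 and 0.1 for Mcm5. Mki67 and Mcm2 were also lost without RhoB-/- replicate 2 or 4 or WT replicate 2 or 4, and Mki67 without WT replicate 1 (0.0579 to 0.0808 for Mki67, 0.0505 to 0.068 for Mcm2). Mcm5 was also lost without RhoB-/- replicate 1 or 2 or WT replicate 1, 2, 4 or 5 (0.0625 to 0.101), and all 3 with no filter on low TPM. Goblet markers had Clca1 and Fcgbp higher among 7 and 0 lower, and 5 of the 7 had a positive log2 fold change. Agr2 went the other way, from 2230.5 to 1538.7 TPM (-0.59, limma adjusted p = 0.0523), as did Muc2 (-0.19, adjusted p = 0.474). Epithelial markers had Cldn7 and Cdx2 higher among 8. Both epithelial calls were lost without the library labelled RhoB-/- replicate 5 (limma adjusted p = 0.0816 and 0.0987) and with no filter on low TPM (0.0817 and 0.0777). The call of Cldn7 was also lost without RhoB-/- replicate 1 or 4 or WT replicate 1, 2, 4 or 5 (0.0507 to 0.0876), and that of Cdx2 without RhoB-/- replicate 1, 3 or 4 or WT replicate 2, 3, 4 or 5 (0.0523 to 0.104). T cell markers summed to 3.72 to 10.2 TPM in WT and 14.6 to 18.0 TPM in RhoB-/- libraries (Cd3e, Cd3g and Cd8a higher, of 4 tested), myeloid markers to 1.93 to 3.32 and 4.26 to 14.9 TPM (Cd68 higher, of 2), B and plasma cell markers to 0.18 to 1.01 and 0.99 to 13.6 TPM (none tested), and fibroblast markers to 2.98 to 4.04 and 5.72 to 35.1 TPM (Dcn higher, of 2, though with no filter on low TPM its adjusted p in limma was 0.0634). The WT means of Cd8a (0.832 TPM), Cd68 (0.988 TPM) and the uncalled Lyz2 (0.868 TPM) were below the level for testing. These genes were tested only because of their higher RhoB-/- values, so the counts of T cell and myeloid genes called higher are not independent of that filter. The library labelled RhoB-/- replicate 5 held the highest myeloid, B and plasma cell, and fibroblast sums. In the other RhoB-/- libraries these sums were 4.26 to 8.56, 0.99 to 5.09 and 5.72 to 15.07 TPM. Sums of endothelial, smooth muscle and enteric nervous markers stayed under 2.3 TPM in all libraries. The part of surface and immune cells in Sgk1, Sgk2 and the other members was not tested.

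The genes around the axis were read as lists by role, 124 genes in all. Of the 106 tested, 12 were called higher and 18 lower, with a median log2 fold change of -0.09, beside 7.73% higher, 13.5% lower and -0.13 over all tested genes. The split depended on scaling: centring each library on its median gave 21 higher and 17 lower, and leaving out mitochondrial genes gave 13 higher and 33 lower. Over all tested genes, 36.5% of the calls were higher ones as deposited, 55.0% after centring and 22.8% without mitochondrial genes.

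Proteases that cleave ENaC and proteins that act on it had 6 of 19 genes higher and 5 lower, with a median log2 fold change of -0.04. Prss8, the channel-activating protease prostasin, fell from 25.8 ± 4.13 to 16.3 ± 2.996 TPM (SD, n = 5 each, log2 fold change -0.64, limma adjusted p = 0.009). St14, the protease matriptase, rose from 117.6 ± 11.3 to 190.0 ± 34.8 TPM (0.67, adjusted p = 0.00508), and its inhibitors Spint1 (0.52, 0.0115) and Spint2 (0.56, 0.0139) rose with it. Tmprss4, another activating protease, rose from 95.7 to 136.3 TPM (0.51, limma adjusted p = 0.0138), and Furin gave 0.14 (adjusted p = 0.468). Usp2, a deubiquitinase that opposes Nedd4-2, rose from 8.54 ± 1.68 to 15.7 ± 3.50 TPM (0.80, limma adjusted p = 0.00613). The kinases Wnk4 and Stk39, which regulate salt transporters, fell by 0.57 and 0.61 on the log2 scale (limma adjusted p = 0.00258 and 0.00635). Usp10 fell by 0.50 (adjusted p = 0.0232), and its adjusted p in limma was 0.0602 without RhoB-/- replicate 1 and 0.0596 without WT replicate 4. The scaffold Cnksr3 (-0.42, limma adjusted p = 0.049) and the scramblase Plscr1 (0.52, limma adjusted p = 0.0493) completed the list and were named after their values were seen. The call of Cnksr3 was lost without any 1 of RhoB-/- replicates 1, 2, 3 and 5 and WT replicates 2 to 5 (0.0578 to 0.115), and that of Plscr1 without any 1 of RhoB-/- replicates 1, 3, 4 and 5 and WT replicates 1, 2, 4 and 5 (0.0522 to 0.119). Cnksr3 was also lost after centring (0.123), quantile normalization (0.152), with a mean of at least 5 TPM (0.0515), with no filter (0.0975) and with no trend (0.0559), and Plscr1 with no filter (0.101) and no trend (0.0558). The list had 3 genes lower without RhoB-/- replicate 1 or WT replicate 4, and 8 without mitochondrial genes.

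The ubiquitin ligases related to Nedd4l had 2 of 8 tested genes lower and 0 higher in limma, and at an unadjusted p below 0.05 also 2 lower and 0 higher. Nedd4, the founding member of the family, measured 70.8, 82.2, 54.2, 79.4 and 65.7 TPM in WT and 48.5, 40.2, 45.1, 45.9 and 46.5 TPM in RhoB-/- libraries. Every RhoB-/- library was below every WT library for Nedd4 (log2 fold change -0.62, limma adjusted p = 0.00501) and for Wwp1, another ligase of the family (-0.64, adjusted p = 0.0022).

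Genes that activate the SGK kinases had 1 of 12 lower, Deptor, an inhibitor within the mTOR complexes, which fell from 23.9 ± 5.12 to 13.1 ± 1.33 TPM (log2 fold change -0.80, limma adjusted p = 0.00293). None of the 12 was higher in limma, also at an unadjusted p below 0.05, and Pdpk1, which encodes the kinase PDK1 that activates SGK, gave 0.21 (adjusted p = 0.229; 0.0375 after centring and 0.0365 after quantile normalization). Of 14 tested SGK substrates, their 14-3-3 partners and Akt kinases, 1 was lower and 0 higher in limma, beside 3 lower and 1 higher at an unadjusted p below 0.05. The gene called was Ndrg2, a substrate of SGK1, which fell from 76.0 ± 18.0 to 48.2 ± 3.34 TPM (-0.62, limma adjusted p = 0.0123), whereas its relative Ndrg1 gave 0.41 (adjusted p = 0.212). A single gene of this list was called higher without RhoB-/- replicate 2 or without any 1 of the WT replicates, 4 were called higher after centring, and 2 were called lower without RhoB-/- replicate 3.

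**Figure D4:**
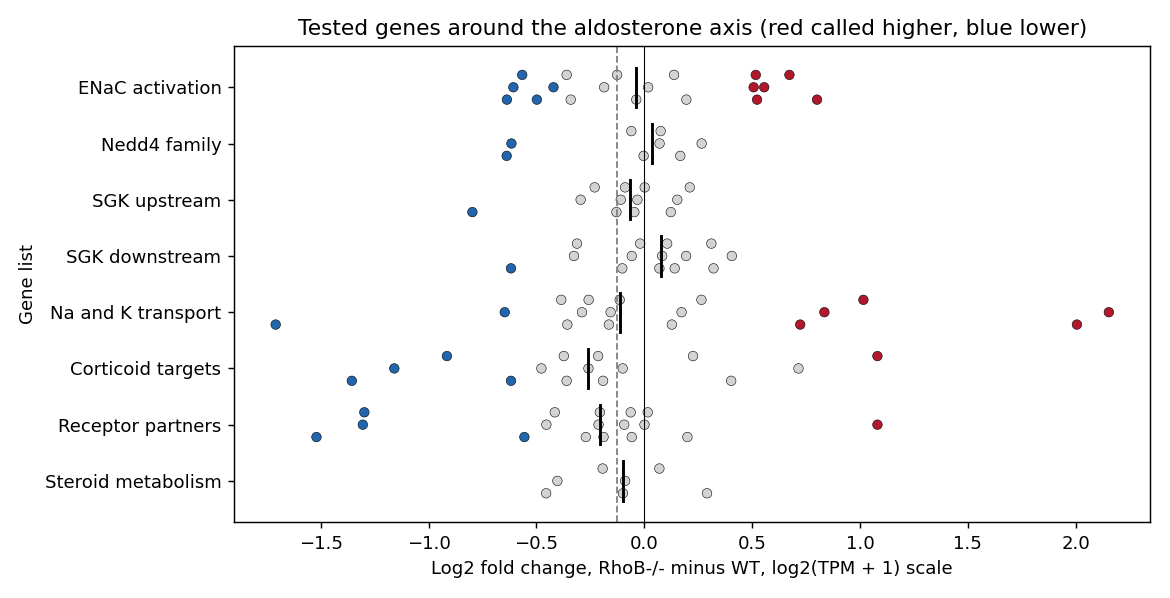
Log2 fold change (RhoB-/- minus WT, log2(TPM + 1) scale) of each tested gene in the 8 lists around the axis, with genes called higher in red and lower in blue, a short black bar at each list's median, a line at 0 and a dashed line at the median of all tested genes. Sodium and potassium transport holds the genes farthest to the right, Slc9a3 at 2.15 and Atp12a at 2.01, and Fxyd4 at -1.71 the one farthest to the left.

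Sodium and potassium transport had 5 of 17 tested genes higher and 2 lower, and 4 lower without RhoB-/- replicate 3. Fxyd4, a corticosteroid-induced regulator of the sodium pump, measured 9.72, 42.6, 13.4, 20.4 and 7.10 TPM in WT and 3.12, 3.18, 5.67, 7.26 and 2.29 TPM in RhoB-/- libraries. The groups overlapped narrowly, and WT replicate 2 stood highest (log2 fold change -1.71, SE 0.41, limma adjusted p = 0.0133). Slc9a3, the sodium-proton exchanger NHE3 of electroneutral uptake, measured 42.5, 35.02, 55.3, 34.6 and 63.9 TPM in WT and 212.6, 251.4, 126.5, 191.1 and 268.2 TPM in RhoB-/- libraries. All RhoB-/- libraries of Slc9a3 were above all WT libraries (2.15, SE 0.22, limma adjusted p = 6.5e-05). The exchanger Slc9a2 (NHE2) rose by 0.84 and the scaffold of NHE3, Slc9a3r1, named after its value was seen, by 0.72 (limma adjusted p = 0.00204 and 0.0124). Atp12a, the colonic proton-potassium pump that is known to respond to aldosterone, rose from 18.2 ± 9.83 to 74.1 ± 29.6 TPM without overlap (2.01, SE 0.37, limma adjusted p = 0.00328). Kcnn4, a basolateral potassium channel, fell by 0.65 and Fxyd5, a pump regulator of the same family as Fxyd4, rose by 1.02 (limma adjusted p = 0.00915 and 0.010). Atp1b1, the beta subunit of the sodium pump, had a log2 fold change of 0.27 (limma adjusted p = 0.129, and 0.0194 after centring).

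Known targets of the corticoid receptors had 1 of 15 tested genes higher and 4 lower, with a median log2 fold change of -0.26. Fkbp5, an HSP90 co-chaperone that lowers the steroid affinity of the receptors, measured 54.0, 47.8, 50.3, 46.1 and 57.6 TPM in WT and 92.3, 113.6, 96.6, 117.0 and 129.7 TPM in RhoB-/- libraries. The groups were far apart (log2 fold change 1.08, SE 0.12, limma adjusted p = 8.4e-05). In the other direction, Ddit4, an inhibitor of mTORC1, fell from 93.3 ± 13.2 to 35.9 ± 6.01 TPM (-1.36, limma adjusted p = 3.9e-05), and Glul, glutamine synthetase, from 241.8 ± 27.7 to 108.1 ± 16.4 TPM (-1.16, limma adjusted p = 0.000101), both without overlap. Angptl4, an inhibitor of lipoprotein lipase, and Ndrg2, which the list shares with the SGK substrates, were the other 2 genes lower, Angptl4 with -0.92 (limma adjusted p = 0.0145). Tsc22d3, the glucocorticoid-induced leucine zipper, had a log2 fold change of -0.36 (limma adjusted p = 0.165; 0.0358 without mitochondrial genes and 0.0411 after quantile normalization), and the clock gene Per1 had -0.19 (adjusted p = 0.511). Sgk1, a target of the same receptors, was higher like Fkbp5, whereas Ddit4 and Glul were lower. The list had 2 genes higher without RhoB-/- replicate 2.

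Chaperones and co-regulators of the receptors had 1 of 17 genes higher, again Fkbp5, and 4 lower. Hsp90aa1, the inducible HSP90 that holds the receptors ready for steroid, fell from 346.8 ± 25.1 to 142.9 ± 34.8 TPM (log2 fold change -1.31, limma adjusted p = 0.000214). The heat-shock chaperones Hsph1 (-1.52, limma adjusted p = 0.00113) and Dnajb1 (-1.30, limma adjusted p = 0.000316) fell as well, all without overlap. Nrip1, a corepressor, fell by 0.56 (limma adjusted p = 0.0453), a call lost without any 1 of RhoB-/- replicates 1 to 4 and WT replicates 2, 4 and 5 (0.0683 to 0.110), after centring (0.0622), with no filter (0.0997) and with no trend (0.0531). Of the 17 genes of steroid synthesis, steroid metabolism and the renin-angiotensin system 7 were tested, with 0 calls in limma and 2 lower and 0 higher at an unadjusted p below 0.05. Cyp11b1, Cyp11b2 and Cyp21a1, the late enzymes of corticoid synthesis, were listed at 0 in all 10 libraries, and 1 gene of this list was called lower without WT replicate 1.

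**Figure D5:**
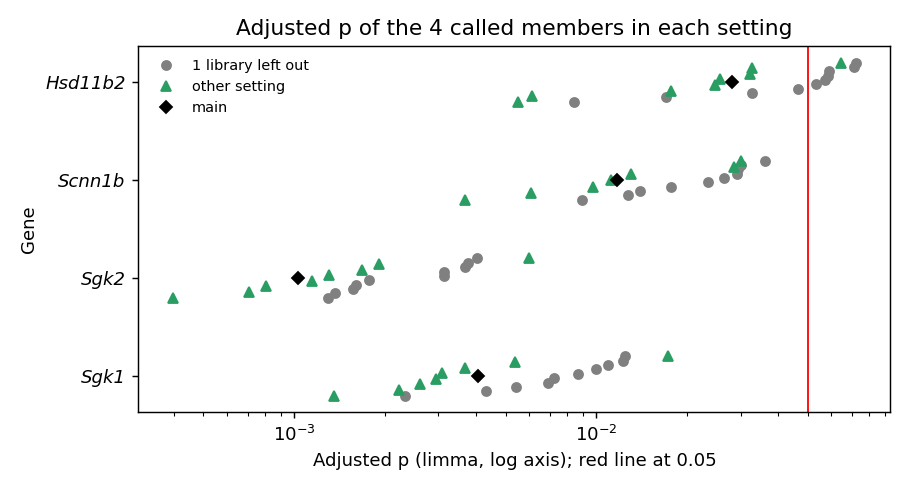
Adjusted p from limma (log axis) of the 4 called members under each alternative processing and with each library left out, with a diamond for the values reported here and a red line at 0.05. The points of Sgk1, Sgk2 and Scnn1b all lie below 0.05, up to 0.0173, 0.006 and 0.0361, and those of Hsd11b2 lie on both sides of it, up to 0.0725.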

How the data were processed

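Total RNA of colonic epithelial cells of 5 WT and 5 RhoB-/- samples was sequenced with one library per sample. The authors deposited 1 table of TPM per gene. Their processing notes name HISAT2, StringTie, RSEM, edgeR and the build GRCm38.p6, with versions not given in the sources used here. Counts were not used here, so no count test was run and depth is unknown, and intervals cover the spread between libraries only. All 10 sample columns were matched to labels, and 0 were left out.

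Genes with a mean of at least 1 TPM (12870 of 55487) were tested on log2(TPM + 1) with limma 3.58.1 (R 4.3.3, empirical Bayes with trend, no block), with Benjamini-Hochberg adjustment over all of them. Genes below that level were compared by a two-sided exact permutation test over 252 labellings. The procedure was tested on simulated data.

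The members and the gene lists were chosen with earlier results of these data known. Named are all members, Rhob, a fixed set of pathway genes, and up to 4 called genes per list and direction by size of change. Some further genes, among them the uncalled markers Agr2, Muc2, Car1 and Mptx1, were named after their values were seen. One gene of the fixed set is not reported here. The posterior Hox and other marker lists are given mainly as sums. Positions are from GENCODE M21 on GRCm38, and promoter windows from RefSeq on GRCm38.p6.

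Alternatives were a pseudocount of 0.1, no filter or a mean of at least 5 TPM, median centring, quantile normalization, removal of mitochondrial genes with rescaling, no trend, the thresholds of the study (unadjusted p below 0.05 and fold change above 1.5), the replicate number as a block, and each library left out in turn.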

Additional observations from a re-analysis of the deposited data

Results flagged for a closer look

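In 134 groups of 5 libraries, 3 had a library outside Dixon's limit, where chance gives about 6.7, and none of these was a group of a member. Rhob was 110.87 TPM in the library labelled RhoB-/- replicate 5, far above the other RhoB-/- libraries. Slc9a2 was 149.8 TPM in the library labelled RhoB-/- replicate 5, above the other RhoB-/- libraries. Dnajb1 was 72.16 TPM in WT replicate 1, below the other WT libraries.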

How the results depend on the processing

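Members called higher numbered 2 under every alternative. Members called lower numbered 1 with a mean of at least 5 TPM, where Scnn1b was not tested, and 1 with no filter on low TPM, where Hsd11b2 had an adjusted p of 0.0643; with a library left out they numbered 1 to 2. The sign of Nr3c2 changed to 0.017 after median centring. Pathway genes called higher numbered 21 after median centring, beside 12, and pathway genes called lower 33 without mitochondrial genes, beside 18. Same-numbered libraries of the 2 genotypes deviated from their group means with correlations of -0.0874 to 0.072, and 1 of 5 matched best with its own number. These values gave no sign that the numbers pair the libraries, but they cannot exclude pairs that share little variation. With the replicate block the members had 2 genes higher and 2 lower, the pathway genes 12 higher and 16 lower, all tested genes 836 higher and 1059 lower, and Hsd11b2 an adjusted p of 0.0322. The block also ended the calls of Usp10 (adjusted p = 0.0578), Cnksr3 (0.0632), Mcm2 (0.0617), Mcm5 (0.0632) and Cdx2 (0.0652), and leaving out the trend those of Mcm5 (0.0501) and Cdx2 (0.0506). With no filter, where both entered the test across genes, Sgk3 and Scnn1g had adjusted p in limma of 0.218 and 0.0988. Sgk3 also entered that test without mitochondrial genes, with an adjusted p of 0.119. TPM values keep no depth, which limits what can be said of genes under 1 TPM. Over all tested genes, 995 were higher and 1734 lower, beside 719 to 1154 and 853 to 2868 with a library left out, 2010 and 1645 after centring, 1587 and 1975 after quantile normalization, 1101 and 3729 without mitochondrial genes, 814 and 1104 with a mean of at least 5 TPM, and 820 and 1072 by the thresholds of the study. The proteins acting on ENaC had 3 genes lower with the replicate block and 2 higher and 2 lower by the thresholds of the study, beside 6 and 5. Sodium and potassium transport had 6 genes lower without mitochondrial genes, beside 2.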
